A study of Mus musculus with 3 samples.

Results

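The skeletal cells of the fracture callus were compared between day 7 and day 10 after fracture. A droplet barcode counted as a skeletal cell when it had at least 500 genes, at most 10% mitochondrial UMIs, at most 5% hemoglobin UMIs, no UMI of *Ptprc*, and at least 100 UMIs of *Col1a2*, *Col3a1*, *Sparc* and *Bgn* together per 10000 of its UMIs. A UMI is a molecular tag that marks 1 captured mRNA. The rule took 462 of the 9103 deposited barcodes at day 7 and 7132 of the 8801 at day 10, which is 7594 of 30888 in the series. Cells with more *Aspn* than *Col9a1* UMIs are called the *Aspn* class here, with 93 cells at day 7 and 2563 at day 10. Cells with more *Col9a1* than *Aspn* are called the *Col9a1* class, with 321 and 4365 cells. The other 48 and 204 cells had equal numbers of both and entered no comparison.

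The cells came from the femoral fracture callus of C57BL/6 mice. The mice were operated on under isoflurane with buprenorphine against pain, and the study names no other treatment for those used in the sequencing. The fracture was cut at mid-shaft and held by an intramedullary pin, the callus was digested with type I collagenase, and live CD45-CD31-TER119- cells were sorted. *Ptprc* encodes CD45, yet 7264 cells of the day 7 library below the matrix threshold and 188 that met it had its UMIs, which goes against the sort. Each day is a single droplet library, and the age and number of the mice in a library were not given in the sources used here. The day 14 library, with 9663 cells by the same rule, served as a second distance from day 10.

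A callus first holds fibroblast-like progenitors from the periosteum, which lay down collagen and turn into cartilage or bone. *Aspn* encodes asporin, a small proteoglycan of progenitors and other stromal cells, and *Col9a1* encodes a chain of collagen IX, which coats the collagen II fibrils of cartilage. Cartilage of the callus later matures, its cells enlarge and make collagen X, and bone replaces it.

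The UMIs of a class were summed and scaled to CPM, so that the counts of each class and day sum to the same total. Each level has an exact Poisson 95% interval and each ratio an exact binomial one. These intervals cover counting error only. They treat the summed UMIs as independent and so leave out the spread between cells, which is wide where a few cells hold most UMIs of a gene. No replicate library measured the variation between animals or captures, and no p-value can be given. Summed UMIs do not tell fewer cells with a transcript from less of it per cell, so shares of cells stand beside the levels of the main genes. Log2 ratios are day 7 over day 10 throughout. A gene was called when its log2 ratio was at least 1 in size and the interval excluded 0, among genes with a mean of at least 20 CPM over both days.

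The libraries differed before any gene was compared. The *Aspn* class had a median of 25827 UMIs a cell at day 7 and 15990 at day 10, and the *Col9a1* class had 35061 and 20178. More than 5000 genes were seen in 52.7% and 62.3% of the cells of these classes at day 7, against 10.9% and 10.2% at day 10. At day 7, 7264 cells within the gene, mitochondrial and hemoglobin limits had a *Ptprc* UMI and lay below the matrix threshold. They are called the cells with *Ptprc* here, and neutrophil granule genes made up 21.5% of their UMIs. The same 16 genes made up 0.193% and 0.209% of the UMIs of the *Aspn* and *Col9a1* classes at day 7, and 0.00100% and 0.00402% at day 10. The *Ptprc* limit removed 188 of the 650 day 7 cells that met the matrix threshold and 3 cells at day 10. Day 7 and day 10 shared 29 barcodes, 2 of them in skeletal cells.

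The rule was checked on its own genes, as a description. The *Aspn* class had 18322 CPM of the collagen I chain *Col1a2* on day 7 and 16978 on day 10, and the 4 matrix genes were each seen in at least 98.7% of the skeletal cells at day 7 and 99.5% at day 10. Within the threshold of 100 per 10000, the nearest 7 cells at day 7 and 41 at day 10 had 100 to 110, and 3 and 35 cells just outside had 90 to 100. *Aspn* itself was lower at day 7, at 1869 CPM against 3253 CPM in its own class. The *Aspn* class held 20.1% of the skeletal cells at day 7 (95% CI, 16.6% to 24.1%) and 35.9% at day 10 (95% CI, 34.8% to 37.1%), and the *Col9a1* class held 69.5% (95% CI, 65.1% to 73.7%) and 61.2% (95% CI, 60.1% to 62.3%). The digestion and sort of each day can set these shares, which cannot be told apart from the day.

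Most genes had nearly the same level on both days. In the *Aspn* class 86.5% of 5709 genes lay within 0.5 of a log2 ratio of 0, and in the *Col9a1* class 88.4% of 5140 genes did. The median log2 ratio over all genes was 0.06 and 0.15. In the *Aspn* class 41 genes were called higher at day 7, which is 0.718% of those compared, and 58 were called lower, which is 1.02%. Of the genes in the *Col9a1* class, 44 (0.856%) were called higher and 59 (1.15%) lower. Over the 4853 genes compared in both classes, 16 were called higher in both, 19 lower in both and 0 in opposite directions. The 16 include 6 neutrophil granule genes, which entered the comparison only through their level at day 7 and so could only be called higher. The same holds for *Lyz2*, a macrophage gene, at 63.8 against 4.95 CPM and 72.0 against 3.34 CPM in the *Aspn* and *Col9a1* classes. The 16 are a share of 29 genes called higher in the *Aspn* class and 32 in the *Col9a1* class, and the 19 of 36 and 44 called lower.

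**Figure D1:**
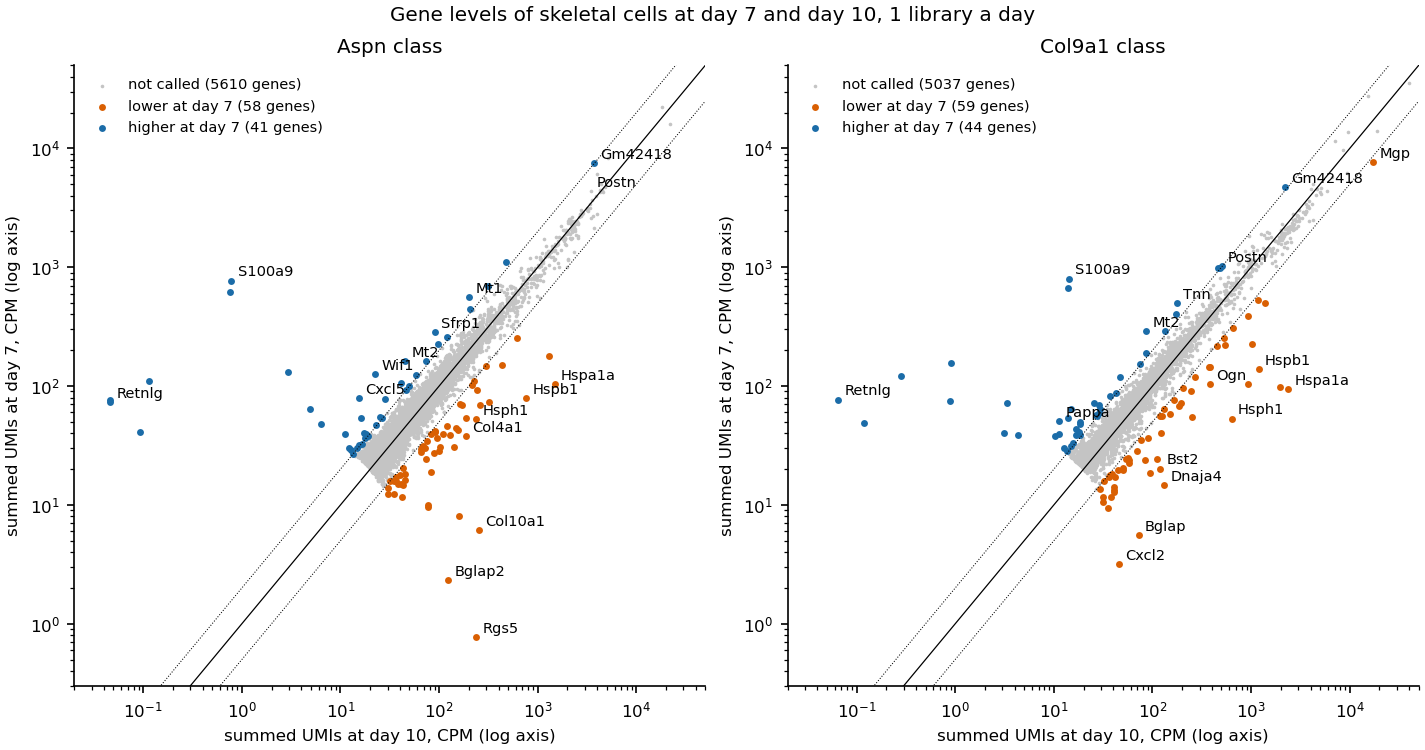
Level of each gene at day 10 (x axis) and day 7 (y axis) in CPM of summed UMIs on log axes, for the *Aspn* class (left) and the *Col9a1* class (right), each point 1 gene. The solid line marks equal levels and the dotted lines a log2 ratio of 1 in size. The grey points follow the solid line, heat shock genes such as *Hspa1a* lie far below it, and neutrophil genes such as *S100a9* lie far above it.

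Day 14 over day 10, which shares the day 10 library, gave a second distance. It called 12 genes (0.217%) higher and 35 (0.632%) lower in the *Aspn* class, and 17 (0.348%) higher and 38 (0.779%) lower in the *Col9a1* class. Within 0.5 of a log2 ratio of 0 were 95.7% and 94.6% of the genes. More genes were therefore called between day 7 and day 10 than between day 14 and day 10, in both classes and both directions, with 1 library behind each day. The 2 distances rest on unequal numbers of cells, 93 and 321 in the classes at day 7 against 5287 and 3875 at day 14. The calls as higher at day 7 include 6 and 8 neutrophil granule genes. How far cell numbers set the counts of calls was not tested.

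A set of heat shock genes was lower at day 7. The chaperones they encode help other proteins to fold and are switched on when cells meet heat or other protein damage, through short DNA elements that bind heat shock factors. *Hspa1a* and *Hspa1b*, both of which encode the inducible HSP70, and *Hspb1*, which encodes the small chaperone HSP27, were lower at day 7 in both classes. So were *Hsph1*, which encodes HSP110, and *Dnajb1*, a DnaJ-type helper of HSP70.

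*Hspa1a* in the *Aspn* class had 103 CPM (95% CI, 91.2 to 116) on day 7, 1483 on day 10 and 2232 on day 14. The log2 ratio was -3.84 (95% CI, -4.02 to -3.67), which makes day 10 14.4-fold higher than day 7. The *Col9a1* class had 94.2 CPM (95% CI, 88.5 to 100.1) of it on day 7, 2369 on day 10 and 4282 on day 14, and day 10 was 25.2-fold higher (log2 ratio -4.65; 95% CI, -4.74 to -4.56). Day 7 alone was low, and the later days lay within a factor of 2 of each other. *Hspa1b* stood at 178, 1288 and 1604 CPM in the *Aspn* class and at 97.6, 1978 and 2972 CPM in the *Col9a1* class at day 7, day 10 and day 14. Its log2 ratios were -2.86 and -4.34. The genes are near-identical neighbours on chromosome 17, so how their reads were split between them is uncertain, and their sum is the firmer value. Summed, they gave 281 and 2771 CPM in the *Aspn* class on day 7 and day 10, and 192 and 4346 CPM in the *Col9a1* class.

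The lower level at day 7 was spread over the cells. A median cell of the *Aspn* class had 0.394 UMIs of *Hspa1a* and *Hspa1b* per 10000 on day 7, 11.3 on day 10 and 22.9 on day 14, and one of the *Col9a1* class had 0.331, 38.1 and 71.3. Cells without any UMI of either gene made up 38.7% of the *Aspn* class at day 7 and 6.44% at day 10, although the day 7 cells were deeper, and 41.4% and 3.25% of the *Col9a1* class. With every cell thinned to 2000 UMIs, 14.0% of the *Aspn* class at day 7 had a *Hspa1a* UMI (95% CI, 7.66% to 22.7%) and 59.0% at day 10. For the *Col9a1* class these shares were 14.0% (95% CI, 10.4% to 18.4%) and 80.2%. Unthinned, the shares were 52.7% and 86.0% in the *Aspn* class and 41.1% and 93.9% in the *Col9a1* class. Cells with *Ptprc* at day 7, which had a median of 5593.5 UMIs, gave 0.189% thinned and 1.14% unthinned. *Hspa1a* summed to 1.58 CPM in them.

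**Figure D2:**
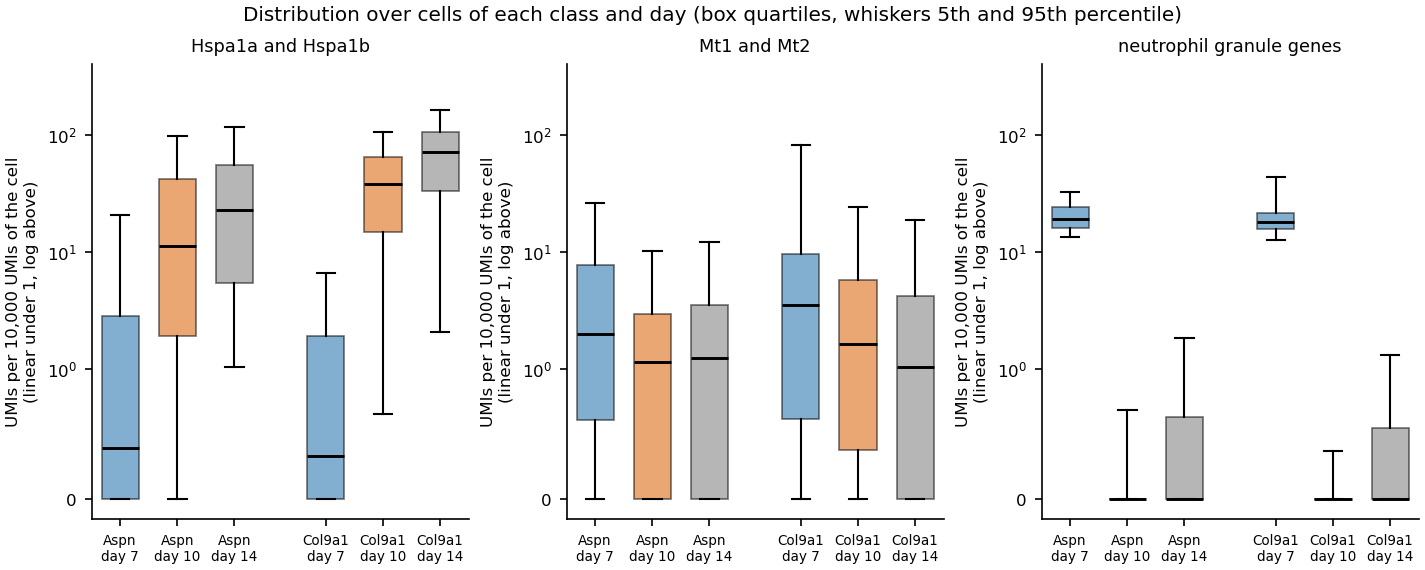
Distribution over single cells of the UMIs of *Hspa1a* and *Hspa1b* (left), *Mt1* and *Mt2* (middle) and 16 neutrophil granule genes (right), per 10000 UMIs of the cell on an axis that is linear under 1 and logarithmic above. Boxes give quartiles, whiskers the 5th and 95th percentile, and the black line the median, for each class at day 7, day 10 and day 14. The HSP70 medians of day 7 lie under 1 and those of the later days between 11.3 and 71.3, while the neutrophil genes have narrow boxes with medians of 18.97 and 18.1 at day 7 and medians of 0 later.

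*Hspb1* stood at 79.6, 760.3 and 792 CPM in the *Aspn* class at day 7, day 10 and day 14, and at 139, 1197 and 3047 CPM in the *Col9a1* class. The log2 ratios were -3.26 (95% CI, -3.46 to -3.06) and -3.11 (95% CI, -3.18 to -3.03). *Hsph1* stood at 53.0, 238 and 235 CPM in the *Aspn* class and 53.2, 635 and 817 CPM in the *Col9a1* class, with log2 ratios of -2.17 and -3.58. Both genes were thus low at day 7 alone, like the HSP70 genes. *Dnajb1* had 42.9, 155 and 158 CPM in the *Aspn* class and 104, 926 and 994 CPM in the *Col9a1* class, with log2 ratios of -1.86 and -3.15.

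Sequences upstream of 4 of these genes are shown because heat shock factors are known to bind repeats of GAA and TTC there. They are the 250 bases before the RefSeq start in GRCm38.p6, in lower case with each match to GAANNTTC or TTCNNGAA in capitals. Both letter patterns read the same on either strand.
*Hspa1a*, chr17:34972157-34972406, minus strand: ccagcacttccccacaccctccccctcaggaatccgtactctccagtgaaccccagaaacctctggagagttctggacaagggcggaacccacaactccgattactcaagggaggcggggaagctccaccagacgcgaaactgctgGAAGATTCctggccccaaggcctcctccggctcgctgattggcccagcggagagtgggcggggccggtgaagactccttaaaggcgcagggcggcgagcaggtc
*Hspa1b*, chr17:34959239-34959488, minus strand: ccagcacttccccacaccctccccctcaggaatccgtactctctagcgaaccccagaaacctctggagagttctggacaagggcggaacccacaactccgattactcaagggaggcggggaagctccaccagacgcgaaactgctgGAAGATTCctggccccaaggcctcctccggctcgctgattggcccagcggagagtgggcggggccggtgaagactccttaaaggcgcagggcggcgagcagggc
*Hspb1*, chr5:135887669-135887918, plus strand: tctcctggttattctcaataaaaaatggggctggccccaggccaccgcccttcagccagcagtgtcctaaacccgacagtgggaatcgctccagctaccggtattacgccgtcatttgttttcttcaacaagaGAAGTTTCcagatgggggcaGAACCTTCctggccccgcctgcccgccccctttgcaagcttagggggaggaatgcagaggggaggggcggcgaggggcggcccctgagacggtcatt
*Hsph1*, chr5:149636337-149636586, minus strand: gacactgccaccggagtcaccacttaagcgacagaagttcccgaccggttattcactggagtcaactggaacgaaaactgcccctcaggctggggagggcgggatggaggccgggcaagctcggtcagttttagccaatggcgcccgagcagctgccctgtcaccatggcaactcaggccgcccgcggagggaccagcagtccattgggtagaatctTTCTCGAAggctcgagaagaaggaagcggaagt

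The windows of *Hspa1a* and *Hspa1b* differed at 3 of 250 bases, and each held 1 match that began 104 bases before the start. *Hspb1* held matches at 117 and 97 bases, and *Hsph1* held 1 at 33 bases before the first of its 2 listed starts. A match was found in 4218 of 32851 windows of this length (12.8%). Of the called heat shock genes with a window, 4 of 7 in the *Aspn* class and 6 of 12 in the *Col9a1* class held one, against 7 of 26 and 7 of 27 of all those compared. The 4 of the *Aspn* class are those shown. *Dnajb1*, *Dnajb4* and *Hspb8*, the other called genes of that class, held none. A match is letters in a window and not a measured binding site.

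Further members were lower at day 7 in the *Col9a1* class. *Dnaja4*, a DnaJ-type chaperone, stood at 14.7, 132 and 169 CPM at day 7, day 10 and day 14 (log2 ratio -3.16), and *Bag3*, which pairs with HSP70 in protein clearance, at 55.1, 249.8 and 324 CPM (-2.18). *Hsp90aa1*, the inducible HSP90, stood at 497, 1382 and 1565 CPM (-1.48). The mitochondrial chaperones *Hspe1* and *Hspd1* had log2 ratios of -1.27 and -1.03 there, and *Dnaja1* had -1.30. In the *Aspn* class the log2 ratios were -0.89 for *Bag3*, -0.52 for *Hsp90aa1*, -0.40 for *Hspe1*, -0.33 for *Dnaja1* and -0.07 for *Hspd1*, and none of these was called. *Dnajb4* (log2 ratios -1.15 and -1.31) and *Hspb8* (-1.10 and -1.51), further co-chaperones, were called lower in both classes. In contrast *Hspa5*, which encodes BiP of the endoplasmic reticulum, had log2 ratios of 0.02 and 0.45, and *Hsp90b1*, which encodes GRP94, had 0.02 and 0.48, a pair chosen after its values were seen.

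Over the list of heat shock proteins and co-chaperones, which was drawn up after the data were seen, 7 of 31 genes compared were called lower and 0 higher in the *Aspn* class, against 1.02% lower over all genes, with a median log2 ratio of -0.17 against 0.06 for all genes. The *Col9a1* class had 13 of 32 called lower and 0 higher, against 1.15% lower over all genes, with a median of -0.46 against 0.15. Over the 3 days the whole list summed to 9178, 13608 and 13467 CPM in the *Aspn* class, and to 8663, 18087 and 24044 CPM in the *Col9a1* class. Each day was a separate capture, and the capture cannot be told apart from the day.

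**Figure D3:**
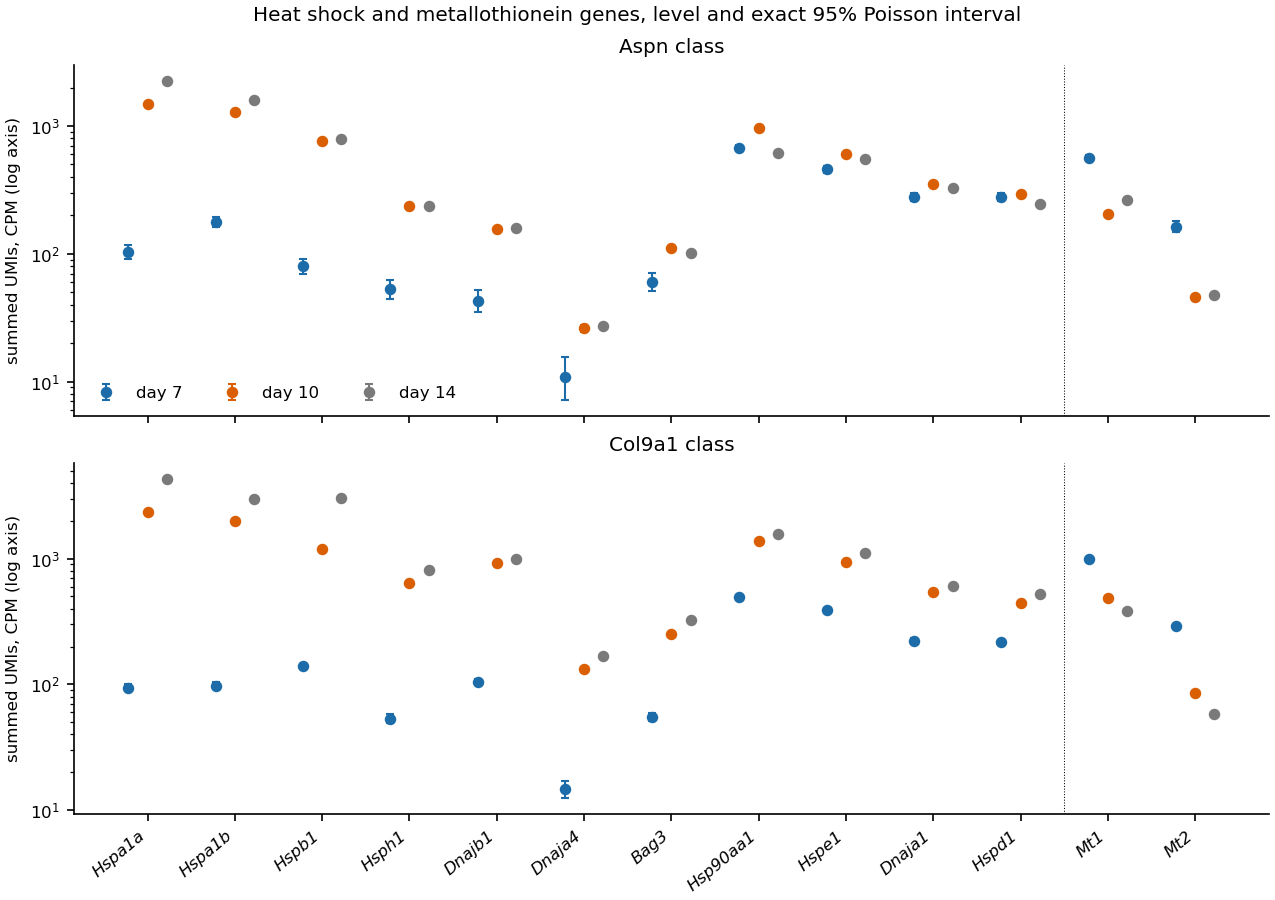
Levels of 11 heat shock genes and of *Mt1* and *Mt2* in CPM on a log axis, for the *Aspn* class (top) and the *Col9a1* class (bottom) at day 7, day 10 and day 14, with exact Poisson 95% intervals that are often smaller than the points. Day 7 lies lowest for *Hspa1a*, *Hspa1b*, *Hspb1*, *Hsph1* and *Dnajb1* in both classes, and highest for *Mt1* and *Mt2*.

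Immediate early genes, which cells switch on within minutes of a stimulus, were mixed. *Fos* had 1330 against 1267 CPM in the *Aspn* class, and with *Egr1* and *Jund* it was not called in either class. *Atf3*, a stress-induced repressor, was lower at day 7 in the *Aspn* class, with 68.8, 170.4 and 88.6 CPM at day 7, day 10 and day 14 (log2 ratio -1.31). In the *Col9a1* class *Cebpb* (-1.44), *Nr4a1* (-1.18) and *Myc* (-1.13) were called lower. *Zfp36*, which encodes the mRNA-destabilising protein tristetraprolin, was higher at day 7 in the *Aspn* class, with 225, 97.0 and 52.2 CPM (1.21), and stood at 363 CPM in the cells with *Ptprc*. The list of immediate early and heat shock genes had 1 higher and 4 lower of 29 in the *Aspn* class, and 0 and 9 of 29 in the *Col9a1* class, and several of the lower ones are the heat shock genes above. Over all genes 0.718% were higher and 1.02% lower in the *Aspn* class, and 0.856% and 1.15% in the *Col9a1* class. The list's medians were -0.11 and -0.58 against 0.06 and 0.15. *Phlda1*, an early response gene, was called lower in both classes, at 68.8 against 262 CPM (log2 ratio -1.93) and 227 against 1023 CPM (-2.17).

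Several secreted inflammatory signals were lower at day 7 than at day 10 and low again at day 14. *Cxcl1*, which attracts neutrophils, stood at 30.5, 101.5 and 21.6 CPM in the *Aspn* class at day 7, day 10 and day 14 (log2 ratio -1.73; 95% CI, -2.07 to -1.41). Its *Col9a1* class levels were 24.1, 109.8 and 29.1 CPM (-2.19; 95% CI, -2.37 to -2.01). Day 10 was thus the high day of the 3. After thinning, 3.23% of the *Aspn* class at day 7 and 10.9% at day 10 had a *Cxcl1* UMI, with 0.0872% in the cells with *Ptprc* (18.3%, 29.0% and 0.220% unthinned). *Cxcl2*, of the same family, had 3.18, 45.9 and 9.03 CPM in the *Col9a1* class (-3.85), and *Il11*, a cytokine of skeletal cells, had 56.4, 124 and 17.9 CPM (-1.13). *Ccl2*, which attracts monocytes, was called lower in the *Aspn* class, with 15.1, 41.0 and 18.7 CPM (-1.44). *Ptges*, which makes prostaglandin E2, went the other way in the *Col9a1* class, with 37.9, 10.3 and 17.5 CPM (1.88). Over the list of inflammatory chemokines and cytokines, 1 gene was higher and 2 lower of 13 in the *Aspn* class (median log2 ratio -0.11 against 0.06 for all genes), and 1 and 3 of 10 in the *Col9a1* class (-0.48 against 0.15). The shares over all genes were 0.718% higher and 1.02% lower, and 0.856% and 1.15%. The higher gene of the *Aspn* class was *Cxcl5*, another chemokine for neutrophils, with 79.3, 15.4 and 13.4 CPM (2.36), and 3 cells held 85.9% of its day 7 UMIs.

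Of the interferon response genes, 3 in the *Aspn* class and 2 in the *Col9a1* class were called lower at day 7. *Bst2*, which encodes the antiviral membrane protein tetherin, stood at 149.997, 437 and 138 CPM in the *Aspn* class at day 7, day 10 and day 14 (log2 ratio -1.54; 95% CI, -1.69 to -1.40). The *Col9a1* class had 20.2, 119 and 33.4 CPM (-2.56). *Ifi27* was called lower in the *Col9a1* class (90.4 against 245 CPM), and *Ifi27l2a* (44.1 against 149 CPM) and *Xaf1* (14.7 against 42.7 CPM) in the *Aspn* class. The list had 3 of 9 genes called lower in the *Aspn* class, against 1.02% of all genes, and 9 of 9 log2 ratios were below 0 with a median of -0.71. With at most 5000 genes a cell that median was -0.20, and *Bst2* (-0.63) and *Xaf1* (-0.41) were not called. The *Col9a1* class had 2 of 3 called lower, against 1.15% of all genes, with a median of -1.44. *Ifi27l2a* stood at 901 CPM in the day 7 cells with *Ptprc*. Without the *Ptprc* limit on the class, its log2 ratio turned to 0.058.

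The metallothioneins, small proteins that bind zinc and copper, were higher at day 7. *Mt1* in the *Aspn* class had 560.2 CPM (95% CI, 532 to 590) on day 7, 203 on day 10 and 265 on day 14, 2.76-fold higher than day 10 (log2 ratio 1.46; 95% CI, 1.38 to 1.54). The *Col9a1* class had 992, 483 and 380.1 CPM (1.04; 95% CI, 1.01 to 1.07), a call kept in 9 of 15 settings with values from 0.61 to 1.69. *Mt2* stood at 163, 45.6 and 47.7 CPM in the *Aspn* class (1.84) and at 289, 85.8 and 57.9 CPM in the *Col9a1* class (1.75). Both genes were therefore highest at day 7 in both classes. Part of the *Aspn* class value came from few cells, since 3 of 93 cells held 38.6% of the *Mt1* UMIs. The median cell had 2.00 UMIs of both genes per 10000 at day 7 and 1.15 at day 10 in the *Aspn* class, and 3.54 and 1.65 in the *Col9a1* class. Cells with *Ptprc* had 104 CPM of *Mt1* and 4.91 CPM of *Mt2*. *Slc39a14*, a zinc and iron importer, was also called higher in the *Aspn* class, with 162, 74.4 and 64.7 CPM (1.12).

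Of the genes of glycolysis and the hypoxia response, 0 of 19 were called in the *Aspn* class and 17 had a log2 ratio above 0, with a median of 0.38 against 0.06 for all genes. The *Col9a1* class had 3 of 21 called higher, against 0.856% over all genes, and 17 above 0, and its median was 0.42 against 0.15, where the lower quartile of all genes was -0.02, so that most genes lay above 0. The 3 were *Slc2a1*, the glucose transporter GLUT1, with 88.1, 42.5 and 31.5 CPM (log2 ratio 1.05), *Pfkp*, a phosphofructokinase, with 64.0 and 29.6 CPM at day 7 and day 10 (1.11), and *Ndrg1*, a hypoxia-induced gene, with 39.3, 11.4 and 6.88 CPM (1.79). *Ero1l*, an oxidase of protein folding that hypoxia also induces, stood at 119, 47.1 and 39.9 CPM (1.34). With the median ratio set to 1, *Slc2a1* stood at 0.90 and *Pfkp* at 0.96, and neither was called. Both also lost the call with a margin between *Aspn* and *Col9a1* (0.92 and 0.99). For *Ndrg1*, 3 of 321 cells held 36.3% of its day 7 UMIs. Nuclear genes of oxidative phosphorylation were not called in 39 of 39 cases in either class, with medians of -0.07 and 0.09. Over all genes 0.718% were called higher and 1.02% lower in the *Aspn* class, and 0.856% and 1.15% in the *Col9a1* class. A list of this size holds few calls at those shares.

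The osteocalcin genes and *Col10a1*, late products of bone and cartilage, were low in the day 7 *Aspn* class. *Bglap* and *Bglap2*, which encode osteocalcin, a late protein of osteoblasts, had 8.12 and 2.32 CPM there on day 7, 160.2 and 124 on day 10, and 231 and 125 on day 14. The log2 ratios were -4.30 (95% CI, -5.00 to -3.69) and -5.74 (95% CI, -7.19 to -4.62). The osteocalcin genes are close copies, so their reads may be split between them. *Col10a1*, the collagen of hypertrophic cartilage, stood at 6.19, 254 and 687 CPM in the *Aspn* class (-5.36; 95% CI, -6.17 to -4.66). All 3 were therefore far lower at day 7 within the cells that had more *Aspn*, but their lists were mixed. Of the osteoblast and mineralization list, 2 of 11 genes were called lower and 0 higher, with 4 above 0. Of the chondrocyte hypertrophy list, 1 of 11 was lower and 0 higher, with 7 above 0. It summed to 10236 CPM at day 7 against 7576 at day 10, and most of either sum was the single gene *Ibsp*. The sum therefore mainly follows *Ibsp* and not the list. Over all genes 1.02% were called lower. The medians were -0.18 and 0.16 against 0.06.

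The late skeletal cells, those rich in these genes, were counted apart. In the *Aspn* class 0 of 93 cells at day 7 had 20 or more UMIs of *Bglap*, *Bglap2* and *Col10a1* per 10000, which allows a share of up to 3.89%, and 101 of 2563 (3.94%; 95% CI, 3.22% to 4.77%) did at day 10. Leaving these cells out, in an alternative added after the data were seen, lowers the same genes by construction. *Bglap* then had a log2 ratio of -0.52 in the *Aspn* class and -0.81 in the *Col9a1* class and was called in neither, whereas in the *Aspn* class *Bglap2* stood at -2.77 without a call and *Col10a1* was still called at -3.21. Of all cells of the *Aspn* class, 88.2% at day 7 and 34.6% at day 10 had no UMI of the 3 genes, with medians of 0 and 0.583 per 10000. Cells with 20 or more per 10000 made up 10.9% (95% CI, 7.71% to 14.8%) of the *Col9a1* class at day 7, 15.6% (95% CI, 14.5% to 16.7%) at day 10 and 30.4% at day 14. There *Bglap* was lower at day 7, with 5.55, 72.2 and 235 CPM (-3.70), while *Col10a1* was not called, with 2681, 2947 and 6001 CPM (-0.14). The osteoblast list had 2 of 13 genes called lower and 0 higher in the *Col9a1* class, against 1.15% lower over all genes. The hypertrophy list had 1 of 13 higher, against 0.856%, and 0 lower. It summed to 33914 CPM at day 7 against 21784 at day 10, and here too most of either sum was *Ibsp*. *Ibsp*, which encodes the mineral-binding bone sialoprotein, stood higher at day 7 without being called, with 8333, 5170.0 and 5305 CPM in the *Aspn* class (0.69) and 27613, 15141 and 18547 CPM in the *Col9a1* class (0.87). In the day 7 *Aspn* class 3 cells held 54.8% of the *Ibsp* UMIs. *Alpl*, *Runx2* and *Sp7*, which act early in bone formation, and *Mmp13* and *Pth1r*, which mark cartilage before and during hypertrophy, were not called in either class.

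Over the cartilage list 4 of 19 genes were called lower at day 7 in the *Aspn* class (median log2 ratio 0.09 against 0.06 for all genes, with 8 of 19 below 0) and 2 of 19 in the *Col9a1* class (median -0.13 against 0.15, with 14 of 19 below 0), and 0 were higher in either. Over all genes 1.02% and 1.15% were called lower. The list's median in the *Aspn* class ran from -0.65 to 0.90 over the settings and so took either sign. *Cnmd*, which encodes the vessel inhibitor chondromodulin, stood at 73.1, 318 and 222 CPM in the *Aspn* class at day 7, day 10 and day 14 (log2 ratio -2.12), and *Ucma*, a protein of young chondrocytes, at 18.9, 82.9 and 77.7 CPM (-2.13). *Snorc*, a transmembrane proteoglycan of cartilage, stood at 53.7, 186 and 461 CPM (-1.79), and *Matn4*, a matrilin, at 147, 296 and 528 CPM (-1.01). After thinning, 6.45% of this class at day 7 and 20.6% at day 10 had a *Cnmd* UMI, against 1.89% of the cells with *Ptprc* (26.9%, 51.6% and 5.44% unthinned). These genes are abundant in the *Col9a1* class, where *Cnmd* stood at 1627, 2513 and 1819.8 CPM (-0.63), *Ucma* at 1073, 1126 and 903 CPM (-0.07) and *Snorc* at 2505, 4285 and 4952 CPM (-0.77), and none was called. *Matn4* (306 against 649 CPM, -1.09) and *Matn1* (95.5 against 202 CPM, -1.08) were called lower in that class. The core genes of cartilage were not called in either class. *Sox9*, the chondrogenic master regulator, had log2 ratios of 0.93 and 0.43, *Acan*, which encodes aggrecan, had 0.33 and 0.24, and *Col2a1* had -0.30 and -0.18.

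Of the small leucine-rich proteoglycans, which bind collagen, 1 of 9 was called lower at day 7 in the *Aspn* class and 2 of 9 in the *Col9a1* class, against 1.02% and 1.15% of all genes. The medians were -0.32 and -0.46 against 0.06 and 0.15, and 0 were higher in either. *Ogn*, which encodes osteoglycin, stood at 105, 381 and 244 CPM in the *Col9a1* class at day 7, day 10 and day 14 (log2 ratio -1.87) and 549, 1045 and 1085 CPM in the *Aspn* class (-0.93, not called). *Omd*, which encodes osteomodulin, was called in both classes, with 70.4, 163 and 155 CPM (-1.22) and 146, 377 and 428 CPM (-1.37). *Mgp*, which encodes the calcification inhibitor matrix Gla protein and is of another family, stood at 7651, 17385 and 15751 CPM in the *Col9a1* class (-1.18; 95% CI, -1.19 to -1.17) and at 2124, 3678 and 4623 CPM in the *Aspn* class (-0.79, not called). The day 7 level was the lowest of the 3 days for each of these genes. *Ogn* belongs to the same protein family as *Aspn*, which defined the classes.

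Of the fibrillar collagens, 0 of 8 were called in the *Aspn* class and 0 of 7 in the *Col9a1* class. Over all genes 0.718% were called higher and 1.02% lower, and 0.856% and 1.15%, so 0 calls is near that share. The medians were 0.11 and 0.20 against 0.06 and 0.15, and the highest members stood at 0.80 and 0.76. *Col1a1* stood at 22283, 17985 and 17266 CPM in the *Aspn* class (log2 ratio 0.31) and at 13853, 9488 and 8214 CPM in the *Col9a1* class (0.55).

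**Figure D4:**
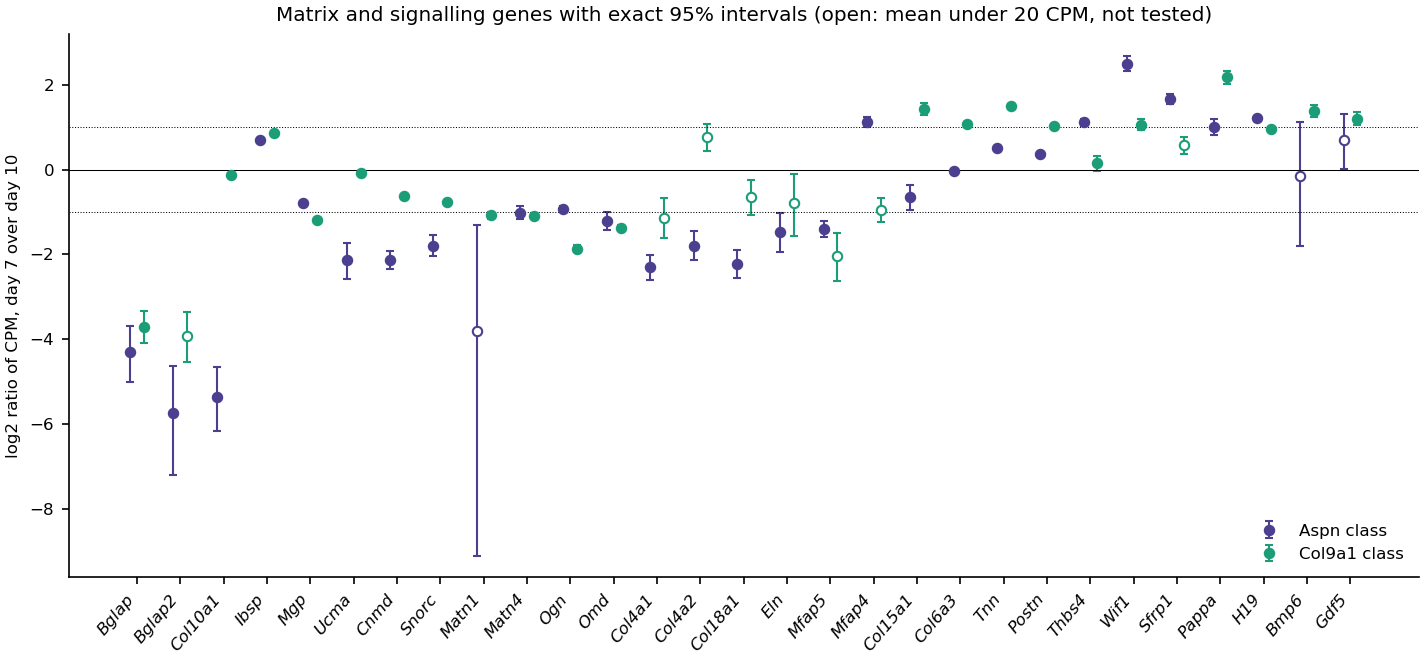
Log2 ratio of day 7 over day 10 for 29 genes of the matrix and of secreted signals, named on the x axis, in the *Aspn* and *Col9a1* classes with exact binomial 95% intervals. Open points have a mean under 20 CPM and were not compared, and dotted lines mark a log2 ratio of 1 in size. *Bglap2* and *Col10a1* in the *Aspn* class lie lowest, and *Wif1* in the *Aspn* class and *Pappa* in the *Col9a1* class lie highest.

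A few collagens of the basement membrane, the sheet under endothelial cells and around pericytes, were lower at day 7 in the *Aspn* class. The list of FACIT, network and basement membrane collagens had 4 of 15 genes called lower and 0 higher there, *Col10a1* among them, against 1.02% lower over all genes, with a median of -0.65. In the *Col9a1* class the list had 2 of 11 higher, against 0.856%, and 0 lower, with a median of 0.04. *Col4a1* and *Col4a2*, the main collagen IV chains, had 37.9 and 28.6 CPM against 186 and 98.9 on day 10 (log2 ratios -2.30 and -1.79). *Col18a1*, a vessel-wall collagen, stood at 30.5, 143 and 111 CPM at day 7, day 10 and day 14 (-2.22). Of 7 pericyte genes, 2 were abundant enough in this class to be compared, and 1, *Rgs5*, was called lower. In levels *Rgs5*, *Mcam*, *Notch3*, *Higd1b*, *Abcc9* and *Kcnj8* stood lower at day 7, with *Higd1b* and *Kcnj8* at 0 UMIs, and *Cspg4*, the other gene compared, stood at 159.7 against 122 CPM and was not called. The list summed to 172, 408 and 412 CPM over the 3 days. A list of 10 endothelial genes summed to 5.41, 18.3 and 19.2 CPM in this class, with 5 of them at 0 UMIs on day 7 and 0 of them abundant enough to be compared. *Rgs5*, which damps vessel-wall signalling, had 2 UMIs (0.773 CPM) on day 7 against 237 and 266 CPM on the later days, and 0 of 93 cells at day 7 (up to 3.89%) against 84 of 2563 at day 10 (3.28%; 95% CI, 2.62% to 4.04%) had 3 or more of its UMIs. Without those cells, an alternative added after the data were seen, *Col4a1* had a log2 ratio of -0.08 and *Col4a2* -0.07, and neither was called, whereas *Col18a1* was still called at -1.53. *Tagln*, a contractile gene, stood at 252, 623 and 480 CPM (-1.30) and was also still called, at -1.19. *Acta2*, which encodes smooth muscle actin, stood at 568, 983 and 587 CPM in the *Aspn* class (-0.79) and was not called there. In the *Col9a1* class it was called lower at 9.37, 35.7 and 38.2 CPM (-1.93), a call kept in 9 of 15 settings. The contractile list had 1 of 18 genes lower in the *Aspn* class (median -0.30 against 0.06), with 5 above 0. In the *Col9a1* class it had 1 of 14 lower (median 0.10 against 0.15), with 8 above 0. The shares lower over all genes were 1.02% and 1.15%, and 0 list members were called higher in either class.

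Elastic fibre genes split in the *Aspn* class. *Mfap5* stood at 92.0, 241 and 367 CPM (log2 ratio -1.39) and *Eln*, which encodes elastin, at 16.2, 45.0 and 18.8 CPM (-1.47), both lower at day 7. *Mfap4* was higher, at 259.8, 119 and 140.2 CPM (1.12), but 3 cells held 65.8% of its day 7 UMIs. Of 17 such genes 1 was higher and 2 lower, against 0.718% and 1.02% of all genes, with a median of 0.28 against 0.06. *Thy1*, a stromal surface protein, was called lower in the same class (log2 ratio -1.06), but stood at -0.59 without a call when the cells with 3 or more *Rgs5* UMIs were left out, and kept the call in 9 of 15 settings. *Tppp3*, a marker of tendon sheath cells (27.4 against 89.1 CPM, -1.70), and *Slc40a1*, the iron exporter ferroportin (39.8 against 109 CPM, -1.46), were called lower there as well. The list of tendon genes had 2 of 6 called higher and 0 lower in the *Aspn* class, against 0.718% and 1.02% of all genes. Its median was 0.15 against 0.06, with 2 of 6 below 0. The 2 called were *Angptl7* and *Thbs4*, and for each of them 3 cells held most of the day 7 UMIs. In the *Col9a1* class 0 of 4 were higher and 1 lower, against 0.856% and 1.15%.

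Of the Wnt list 2 of 10 genes, *Wif1* and *Sfrp1*, were called higher at day 7 in the *Aspn* class and 1 of 7 in the *Col9a1* class, against 0.718% and 0.856% of all genes. None was lower, and the medians were 0.02 and -0.17 against 0.06 and 0.15. *Wif1*, which binds Wnt ligands, stood at 126, 22.4 and 42.3 CPM in the *Aspn* class at day 7, day 10 and day 14 (log2 ratio 2.50; 95% CI, 2.31 to 2.68), and *Sfrp1*, a soluble Wnt-binding receptor, at 285, 90.1 and 57.7 CPM (1.66; 95% CI, 1.54 to 1.77). The day 7 UMIs were held unevenly, since 3 cells had 66.4% of those of *Wif1* and 44.6% of those of *Sfrp1*. After thinning, 9.68% (95% CI, 4.52% to 17.6%) of the cells at day 7 and 3.02% at day 10 had a *Wif1* UMI, and 19.4% (95% CI, 11.9% to 28.9%) and 13.0% (95% CI, 11.7% to 14.4%) a *Sfrp1* UMI, a share that did not differ beyond counting error. The unthinned shares were 23.7% and 12.0% for *Wif1* and 50.5% and 37.0% for *Sfrp1*, and the thinned shares of the cells with *Ptprc* were 0.131% and 0.0436%. *Wif1* in the *Col9a1* class had 56.4, 27.2 and 60.5 CPM (1.05), so that day 10 was the low day there.

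The list of insulin-like growth factor (IGF) signalling was mixed, with 2 higher and 0 lower of 11 in the *Aspn* class (median log2 ratio -0.12 against 0.06 for all genes, with 7 of 11 below 0), and 1 and 1 of 10 in the *Col9a1* class (median 0.14 against 0.15). The shares over all genes were 0.718% higher and 1.02% lower, and 0.856% and 1.15%. *Pappa*, a protease that frees IGF from its binding proteins, stood at 50.8, 11.3 and 12.2 CPM in the *Col9a1* class (log2 ratio 2.17; 95% CI, 2.02 to 2.32) and at 92.8, 46.2 and 26.0 CPM in the *Aspn* class (1.01; 95% CI, 0.81 to 1.20), where it kept the call in 10 of 15 settings. *H19*, the imprinted long noncoding RNA next to *Igf2*, stood at 1099, 477 and 291 CPM in the *Aspn* class (1.20) and at 1842, 945 and 389 CPM in the *Col9a1* class (0.96, not called). *Igfbp4*, the binding protein that *Pappa* cuts, was lower at day 7 in the *Col9a1* class, at 55.9 against 118 CPM (-1.08), and near equal in the *Aspn* class, at 484 against 556 CPM (-0.20). The growth factor *Igf1* stood at 512, 622 and 853 CPM in the *Aspn* class (-0.28), and its receptor *Igf1r* had log2 ratios of 0.46 and 0.79, none of them called.

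Of the matricellular proteins, which sit in the matrix and signal to cells, 3 of 18 were called higher and 0 lower at day 7 in the *Col9a1* class, against 0.856% higher over all genes, with a median log2 ratio of 0.22 against 0.15 for all genes and 7 of 18 below 0. The *Aspn* class had 2 of 21 higher, against 0.718%, and 0 lower, with a median of -0.16 and 12 of 21 below 0. In the *Col9a1* class *Tnn*, which encodes tenascin-W, stood at 503, 177 and 174 CPM at day 7, day 10 and day 14 (log2 ratio 1.503; 95% CI, 1.46 to 1.55). Of the thinned cells of that class, 45.2% (95% CI, 39.6% to 50.9%) at day 7 against 21.6% at day 10 had a UMI. The cells with *Ptprc* gave 0.479%, and the unthinned shares were 83.8%, 59.1% and 1.76%. *Postn*, which encodes periostin, stood at 1026, 505 and 399 CPM in the *Col9a1* class (1.02; 95% CI, 0.99 to 1.05), just past the call, and its interval reached below a 2-fold difference. The third was *Spon2*, a secreted spondin, with 43.4, 16.6 and 21.3 CPM (1.38). Outside the list, *Col6a3*, a collagen VI chain, stood at 987, 466 and 434 CPM (1.08), and *Col15a1* at 49.4, 18.3 and 21.4 CPM (1.43). With the median ratio of all genes set to 1, *Postn* stood at 0.87 and *Col6a3* at 0.93, and neither was called. *Postn* kept the call in 13 of 15 settings and *Col6a3* in 14. In the *Aspn* class, where *Postn* and *Tnn* were higher on every day, *Postn* stood at 4402, 3430.3 and 2465 CPM (0.36) and *Tnn* at 1192, 843 and 608 CPM (0.50), and neither was called. *Thbs4*, a thrombospondin of tendon, was called higher in the *Aspn* class at 449 against 208 CPM, but 3 cells held 50.1% of its day 7 UMIs.

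Of the BMP list, 2 of 17 genes were higher in the *Col9a1* class, against 0.856% of all genes, and 0 of 15 were called in the *Aspn* class. The medians were 0.22 and -0.01 against 0.15 and 0.06. *Bmp6* stood at 48.1, 18.6 and 18.7 CPM (log2 ratio 1.37) and *Gdf5*, a ligand of joint and cartilage formation, at 38.7, 16.9 and 11.2 CPM (1.20). A pair of enzymes was called higher in the *Aspn* class. *Cyp26b1*, which degrades retinoic acid, stood at 77.7, 28.3 and 24.7 CPM (1.46), and *Pcsk5*, a protease that activates growth factors, at 106, 40.9 and 44.6 CPM (1.37). *Nt5e*, which encodes the progenitor surface enzyme CD73, was called in both classes, with 100.1, 49.2 and 55.5 CPM (1.03) and 288, 133 and 104 CPM (1.12). The calls were kept in 7 of 15 settings in the *Aspn* class, where the log2 ratio ran from 0.85 to 1.41, and in 13 of 15 in the *Col9a1* class. Its list of progenitor and stromal markers had 1 of 17 higher and 2 lower in the *Aspn* class (median -0.08), with 13 below 0. In the *Col9a1* class it had 1 of 7 higher and 0 lower (median -0.17), with 4 below 0. Over all genes 0.718% were higher and 1.02% lower, and 0.856% and 1.15%. *Snai1*, a repressor linked to migration, was higher in the *Aspn* class at 125, 58.2 and 72.9 CPM (1.10).

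The largest ratios above 0 belonged mostly to neutrophil granule genes, which precursors of granulocytes transcribe. *S100a9* had 771, 0.783 and 82.1 CPM over the 3 days in the *Aspn* class, and 801, 14.1 and 69.9 CPM in the *Col9a1* class. Of the 16 listed, 6 in the *Aspn* class and 8 in the *Col9a1* class reached a mean of 20 CPM, which they did through day 7, so that their calls as higher follow from the filter. Each cell of both classes at day 7 had some, with 5th and 95th percentiles of 0.134% and 0.323% of its UMIs in the *Aspn* class, whereas the median cell at day 10 had 0. *S100a8* made up 32.1% and 31.7% of these UMIs in the *Aspn* and *Col9a1* classes and 32.9% in the cells with *Ptprc*, and *S100a9* 40.0%, 38.3% and 37.0%. The shares of these most abundant genes were thus close to those of the cells with *Ptprc* in the same library. Some rarer genes differed more. *Mmp8* made up 0.38% and 0.39% against 0.61% in the cells with *Ptprc*, and *Mpo* 1.62% and 1.66% against 1.15%. At day 10, 3 cells of the *Col9a1* class held 97.8% of its *S100a9* UMIs. Hemoglobin made up 0.0239% and 0.0325% of the UMIs at day 7 and 0.000417% and 0.000498% at day 10.

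Sequence features tied to ribosomal RNA also differed between the libraries. *Gm42418*, which overlaps a ribosomal RNA copy, stood at 7525, 3706 and 3148 CPM in the *Aspn* class (log2 ratio 1.02) and at 4753, 2209 and 2049 CPM in the *Col9a1* class (1.11). *Lars2*, which holds a stretch like ribosomal RNA, stood at 691, 312 and 278 CPM (1.15) and at 406, 173 and 155 CPM (1.23). Both were higher at day 7 in both classes, and the cells with *Ptprc* had 3253 and 179 CPM. *AY036118*, the third such feature listed, went the other way, with 109.8, 224 and 192 CPM in the *Aspn* class (-1.03, called lower) and 83.2, 134 and 126 CPM in the *Col9a1* class (-0.69, not called). The part of these differences between captures in the other genes was not tested.

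Several calls described above were lost under a single setting or a few. With at most 5000 genes a cell, the *Aspn* class log2 ratios were -0.80 for *Atf3*, -0.92 for *Dnajb4*, 0.96 for *H19*, -0.65 for *Matn4*, 0.58 for *Pcsk5*, 0.86 for *Slc39a14* and 0.79 for *Snai1*, and those of the *Col9a1* class were -0.33 for *Il11* and -0.87 for *Matn4*, none of them called. *Il11* was called in 11 of 15 settings. After thinning, *Hspb8* stood at -0.0054, *Eln* at -0.997 and *Atf3* at -0.64 in the *Aspn* class, and none was called. Without the *Ptprc* limit *Eln* stood at -0.41, *H19* at 0.59, *Hspb8* at -0.76, *Lars2* at 0.92 and *Gm42418* at 0.86 there, again without a call. With the median ratio set to 1, *Wif1* (0.902) and *Gm42418* (0.953) lost the call in the *Col9a1* class. *Igfbp4* kept its call in 11 of 15 settings.

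Many gene groups showed 0 calls in both classes. Over all genes 0.718% were called higher and 1.02% lower in the *Aspn* class, and 0.856% and 1.15% in the *Col9a1* class. At those shares 0 calls in a short list is near what all genes showed. Collagen folding and secretion had 0 of 32 and 0 of 31, with median log2 ratios of 0.04 and 0.24. Matrix proteases and their inhibitors had 0 of 17 and 0 of 12 (-0.04 and -0.04), and TGF-beta signalling 0 of 14 and 0 of 11 (0.18 and 0.26). Genes of DNA replication had 0 of 12 and 0 of 5 (0.25 and 0.28), and those of mitosis 0 of 11 and 0 of 6 (-0.26 and -0.19). The mitosis median turned to 0.43 in the *Aspn* class with at most 5000 genes a cell. In the *Col9a1* class it turned to 0.35 without the *Ptprc* limit. Hedgehog and PTHrP signalling and the limb position genes, which record where along the limb a cell arose, also had 0. These counts say that no member reached a log2 ratio of 1, not that the levels were the same.

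**Figure D5:**
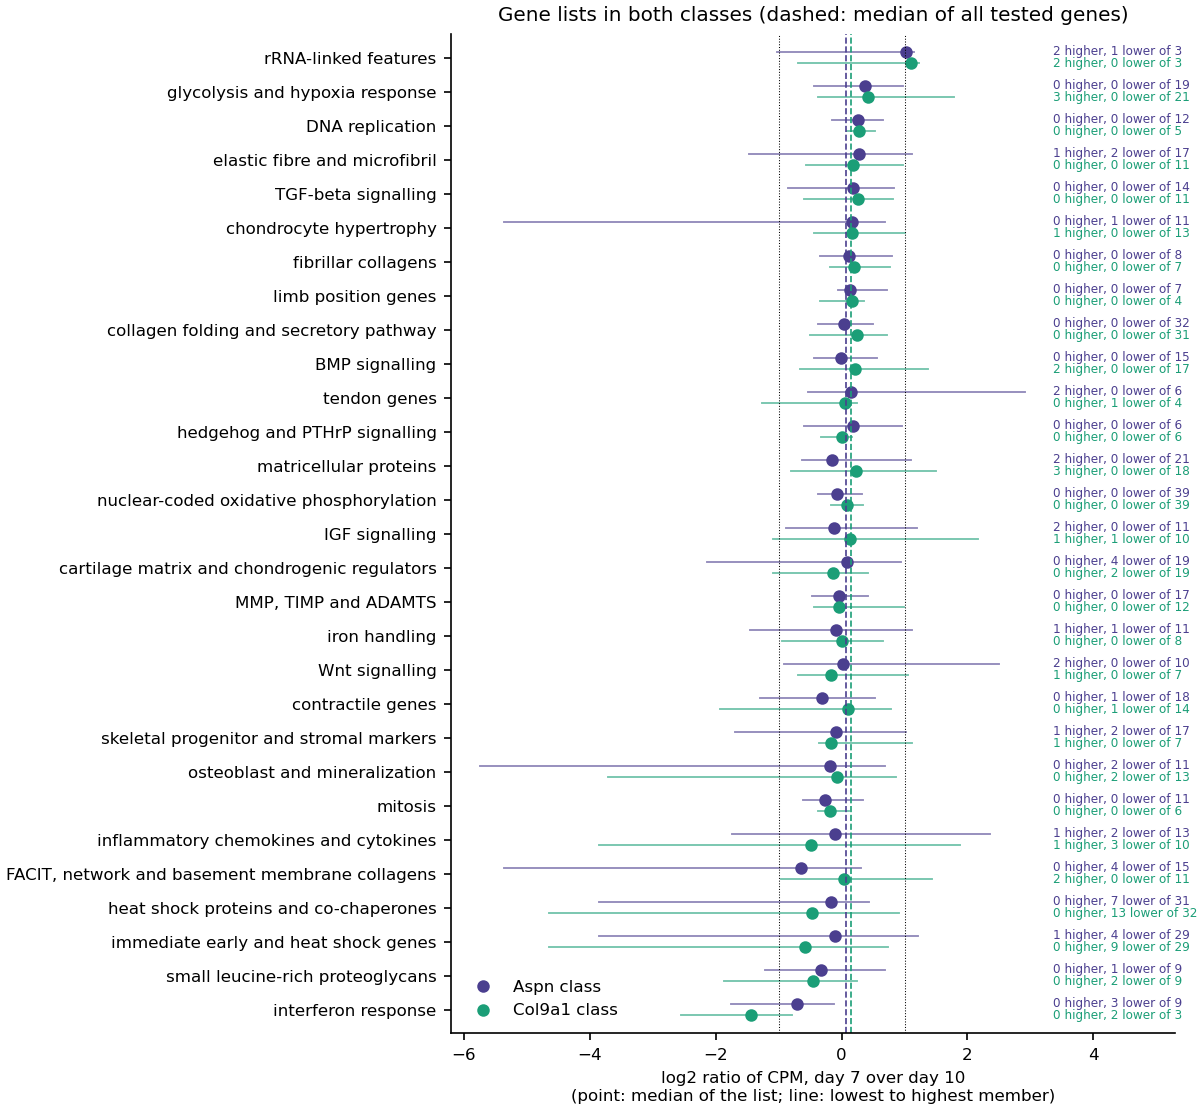
Median log2 ratio of day 7 over day 10 (points) and range from the lowest to the highest member (lines) for 29 gene lists in the *Aspn* and *Col9a1* classes, with the counts of called genes at the right. Dashed lines give the medians of all compared genes, 0.06 and 0.15, and dotted lines a log2 ratio of 1 in size. Most list medians lie near the dashed lines, and the interferon response lies lowest in both classes.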

How the data were processed

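Callus cells of C57BL/6 mice at day 7, day 10 and day 14 after femoral fracture gave 1 droplet library a day. The authors aligned the reads to mm10 with Cell Ranger (version 3.0 in the submitters' processing notes) and deposited raw counts, the number of UMIs of each gene under each barcode. Barcodes outside the study's own limits are among the deposited counts, and 0 columns were left unused. Skeletal cells were chosen and split by the rule given at the opening. The upper limit of 5000 genes used in the study was not applied, since it would remove most day 7 cells. Cells of 1 library are not replicates, so summed counts gave CPM with exact Poisson intervals, ratios with exact conditional binomial intervals and shares with Clopper-Pearson intervals, all at 95%. Rule genes were not compared. Of the 13 mitochondrial genes, 0 were called in either class, with median log2 ratios of 0.15 and 0.05. A count of 0 was read as 3 counts in ratios. Shares of cells were taken after thinning each cell to 2000 UMIs with seed 7, which left out 0 and 15 cells of the *Aspn* class and 7 and 41 of the *Col9a1* class at day 7 and day 10. No doublet caller was run. Genes were named when they were, in a class and direction, among the 15 called genes with the largest log2 ratio, a mean of at least 50 CPM and under 50% of their UMIs in 3 cells, when they were among up to 6 called members of a list (or its highest genes where none was called), when the study names them, when they belong to the rule, or when their ratios differed most between the classes. Other list members were named after their values were seen. The skeletal cells, the lists and the rule were chosen with earlier results of these data known, and the lists of heat shock proteins, metallothioneins and ribosomal RNA features and 3 alternatives were added after the data were seen. The alternatives changed the limits on genes, UMIs, *Ptprc*, matrix genes and neutrophil UMIs, the class margin, the weighting of cells, the CPM scaling, the level filter, thinning and subtraction of free RNA by the profile of the whole library. Promoter windows came from RefSeq sequence of GRCm38.p6, with chromosome 18 left out. On simulated counts, 96.2% of the intervals in the *Aspn* class (5709 genes) and 95.6% in the *Col9a1* class (5140 genes) held the true ratio. Of genes changed 3-fold, 87% and 88% were called, and 0% of the unchanged genes were called. The intervals treat UMIs as independent draws, so this check covers their calculation only. It says nothing of variation between cells, animals or captures, or of false calls that such variation can give. Python 3.11.15 was used with numpy 2.4.6, scipy 1.17.1, pandas 2.3.3 and matplotlib 3.10.9.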

Additional observations from a re-analysis of the deposited data

Results flagged for a closer look

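The 7 genes below are a selection. In each, the *Aspn* class and the *Col9a1* class lay on opposite sides of a log2 ratio of 0 between day 7 and day 10, each beyond its counting interval. Other genes also had opposite signs, such as *Ccn2* (-0.63 and 0.55), *Crip1* (-0.54 and 0.80) and *Timp3* (-0.47 and 0.82). The difference between the classes was not tested, because each class and day has 1 library.

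*Snai1* had a log2 ratio of 1.10 in the *Aspn* class and -0.43 in the *Col9a1* class. *Col15a1*, a collagen of basement membrane borders, had -0.65 and 1.43, and the *Aspn* class value was -0.0041 without the cells with 3 or more *Rgs5* UMIs. *Tppp3* had -1.70 and 0.29. *Col4a2* had -1.79 and 0.77, and its *Aspn* class value was -0.07 without those *Rgs5* cells.

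The other 3 rested on few cells. *Cxcl5*, a chemokine for neutrophils, had 2.36 and -3.02, with 79.3, 15.4 and 13.4 CPM in the *Aspn* class at day 7, day 10 and day 14, and 3 cells held 85.9% of its day 7 UMIs there. *Ccn3*, a matricellular protein, had 1.03 and -2.85, and 3 cells held 87.7%. *Mfap4* had 1.12 and -0.95, and 3 cells held 65.8%. In the *Col9a1* class these 3 genes had a mean under 20 CPM, so by the rule on levels they were not compared there. *Angptl7*, a secreted protein of tendon-like cells, was called higher in the *Aspn* class (2.91), where 3 cells held 91.1% of its UMIs.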

How the results depend on the processing

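With 1 library a day, no replicate could be left out, and depth limits the day 7 *Aspn* class most, with 93 cells. No paired analysis was possible because each day has 1 library. The counts of called genes moved by more than 1.5 times under some settings. Genes higher at day 7 in the *Aspn* class went from 41 to 143 with at most 5000 genes a cell (44 cells at day 7), 112 without the *Ptprc* limit, 224 after thinning, 76 with free RNA subtracted, 151 with a filter at 5 CPM and 12 at 100 CPM. Genes lower went from 58 to 107 with at most 5000 genes, 118 after thinning, 177 at 5 CPM and 18 at 100 CPM. In the *Col9a1* class genes higher went from 44 to 126 with at most 5000 genes (121 cells at day 7), 76 without the *Ptprc* limit, 74 with 5000 to 40000 UMIs, 136 after thinning, 435 with free RNA subtracted, 28 with the median ratio set to 1, 120 at 5 CPM and 12 at 100 CPM. Genes lower went from 59 to 127 at 5 CPM and 25 at 100 CPM. Apart from the filter on levels, the cause was not tested.

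Of 122 called results named by the rule, 57 kept the call under each setting that gave a value, up to 15, and 11 changed sign under at least 1. *Hspa1a*, *Hspa1b*, *Hspb1*, *Hsph1*, *Phlda1*, *Mt2* and *Cxcl1* kept it in both classes under the 15, with *Hspa1a* between -3.91 and -2.88 in the *Aspn* class and between -4.93 and -4.46 in the *Col9a1* class. Fewest of the calls described, with 9 of 15 or less, were kept for *Nt5e* and *Ccn3* (7 each), *Thy1*, *Mfap4* and *Thbs4* in the *Aspn* class and for *Mt1* and *Acta2* in the *Col9a1* class (9 each). Free RNA subtracted by the profile of the whole library, scaled to the neutrophil genes, removed 1.18% and 1.28% of the class UMIs at day 7 but 16.3% and 65.3% at day 10, where neutrophil genes were 0.00616% of the library, so its day 10 values cannot be read as levels. Under it the log2 ratio turned to 0.68 for *Cnmd*, 4.30 for *Col10a1*, 9.26 for *Snorc* and 7.73 for *Ucma* in the *Aspn* class, and to 6.61 for *Acta2*, 5.68 for *Bglap*, 7.72 for *Bst2*, 9.23 for *Igfbp4*, 2.46 for *Ogn* and 7.56 for *Tnmd* in the *Col9a1* class. With subtraction at day 7 only, added after the data were seen, *Hspa1a* had -3.83 and -4.64. Under that setting *Lyz2* had 1.31 and 2.26 and was called in neither class. Without the *Ptprc* limit *Ifi27l2a* in the *Aspn* class turned to 0.058.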
